A study of Caenorhabditis elegans with 8 samples.

Results

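The genes described are the cathepsins and digestive peptidases of Caenorhabditis elegans whose names begin with cpr, cpl, cpz, asp, dpf or pcp followed by a number, and 40 of the 46904 genes in the files met that rule. Of these, 10 encode cysteine peptidases (7 cpr genes of the cathepsin B type, the cathepsin L gene cpl-1 and the cathepsin Z genes cpz-1 and cpz-2). Another 18 are asp genes of aspartyl peptidases of the cathepsin D type. The remaining 12 are serine peptidase genes, namely 7 dpf genes of the dipeptidyl peptidase IV family and 5 pcp genes related to prolyl carboxypeptidase. The rule uses names only and no measured value, though it was chosen with earlier results of these data known.

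The 8 libraries of poly(A)-selected RNA, each from whole hermaphrodites, form 4 groups of n = 2. All groups carried a mutation of hzl-1 (C44H9.4 in the files) and one of daf-2, which encodes the receptor for insulin-like signals. Animals labelled daf-2; hzl-1 are called aak-intact below. Those labelled daf-2; aak(0); hzl-1 are called aak(0), a label that refers to aak-1 and aak-2, which encode the alternative catalytic subunits of the energy sensor AMPK. Dauers, larvae in the arrest that daf-2 mutants enter at 25 °C, were taken at 96 h. Post-dauers were taken at 192 h, having spent the last 96 h at the permissive temperature. The growth temperature listed for all 8 libraries is 25 °C. The labels give no alleles. Nothing in them says that libraries of a group came from different cultures, and the p-values then measure only the spread between these libraries, which may be technical. Animals that keep hzl-1 function are outside these results.

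Cathepsins are made as inactive precursors, are activated by cleavage of a propeptide in acid compartments, and break down proteins in lysosomes. In C. elegans the intestine is both the digestive organ and a main store of lysosome-related organelles, and several cpr and asp peptidases are secreted into its lumen, where they digest bacterial protein. Dauers have a sealed mouth and do not feed, and feeding resumes when they leave the arrest.

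The libraries held 13.99 to 26.98 M recovered reads (defined with the processing), the fewest in aak-intact dauer library 1. Reads of rRNA took 12.8% and 3.49% of the aak-intact dauers, 9.61% and 1.12% of the aak(0) dauers, and 0.559% to 5.40% of the post-dauers. The transcript level of aak-1 was not lower under the aak(0) label in dauers: it was 14.7 and 9.99 FPKM in aak(0) dauers and 3.1 and 3.19 in aak-intact dauers, higher in aak(0) by a log2 difference of 1.66 ± 0.24 (limma adjusted p = 0.00399, edgeR adjusted p = 0.00993). In post-dauers aak-1 stood at 7.16 and 7.72 FPKM in aak(0) and 8.75 and 8.59 in aak-intact animals, and was not called by limma (adjusted p = 0.676). For aak-2 the values were 37.9 and 49.2 FPKM in aak(0) against 35.6 and 43.6 in aak-intact dauers, and 9.85 and 9.4 against 20.2 and 18.4 in post-dauers, where edgeR called it lower (adjusted p = 0.0414) and limma did not (adjusted p = 0.0514). A gene-level value does not see a change inside a gene, so these transcripts establish no label, and aak(0) below means the libraries labelled aak(0). In the 4 libraries labelled aak(0), hzl-1 stood at 0.49 to 3.28 FPKM and daf-2 at 13.8 to 37.2 FPKM. Values are FPKM, fragments scaled to transcript length and to the mapped fragments of the library, so levels can be compared between genes.

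The genes sit mostly on chromosome V, which holds 24 of the 40, with 5 on X, 5 on IV, 4 on III and 2 on I. Several lie side by side (coordinates are of build WBcel235, as the files list them). The genes asp-6, asp-12, asp-5 and the pseudogene asp-11 lie at V:8267511-8275757, and asp-17, asp-16, asp-15 and asp-1 at V:19035753-19050825. Other neighbours within 10 kb are cpr-5 and cpr-8 (V:1132598-1139172), asp-8 and asp-7 (V:3024520-3029583), asp-19 and asp-18 (V:18728703-18731679), dpf-7 and dpf-5 (IV:4799388-4806586), and pcp-3 and pcp-2 (IV:9155079-9165127). Near-identical copies among such neighbours could split reads in the authors' counting. Strand use is not stated in the sources used here, and exons of asp-2, asp-4, cpz-2, dpf-1, dpf-4 and cpr-4 overlap a gene on the other strand by 21 to 74 nt, so those reads cannot be told apart.

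A gene was tested when its mean over the 8 libraries was at least 1 FPKM, which 34 of the 40 genes met, 1 of them (asp-17) through its highest group alone. The 6 genes left out were asp-7, asp-11, asp-15, asp-16, asp-18 and asp-19, none of them above 3.02 FPKM in any library. That value belonged to asp-16, which stood at 2.40 and 3.02 FPKM in aak(0) dauers, at 0.07 and 0.98 in aak-intact dauers and at 0 to 0.15 in the 4 post-dauer libraries. Its neighbour asp-15 was listed at 0 in all 4 dauer libraries and at most 0.11 FPKM in post-dauers. The gene asp-18 stood at 1.03 and 1.93 FPKM in aak-intact dauers, 0.95 and 0.57 in aak(0) dauers and 0 to 0.11 in post-dauers. For asp-7, asp-11 and asp-19 no library exceeded 0.43 FPKM.

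Together the 40 genes took 0.291% and 0.339% of the reads of aak-intact dauers and 0.622% and 0.680% of those of aak(0) dauers. In post-dauers their share was 1.41% and 1.56% (aak-intact) and 1.92% and 1.77% (aak(0)). Aspartyl peptidase genes took 0.0460% and 0.0772% of aak-intact dauer reads and 0.332% and 0.369% of aak(0) dauer reads. After the arrest they took 0.862% and 1.01% (aak-intact) and 1.14% and 0.984% (aak(0)). In aak-intact dauers the aspartyl class was thus the smaller share beside the cysteine class (0.183% and 0.200%), and in the other groups it was the largest of the 3. Cysteine peptidase genes took 0.215% and 0.232% of aak(0) dauer reads, and after the arrest 0.439% and 0.443% (aak-intact) and 0.669% and 0.709% (aak(0)). Serine peptidase genes never exceeded 0.108%, and were lowest in aak-intact dauers (0.0611% and 0.0616%). In RNA of whole animals, fewer cells of a type and less RNA per cell cannot be told apart. No test is given for these shares, since 2 libraries against 2 cannot go below a two-sided exact permutation p of 0.333.

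**Figure D1:**
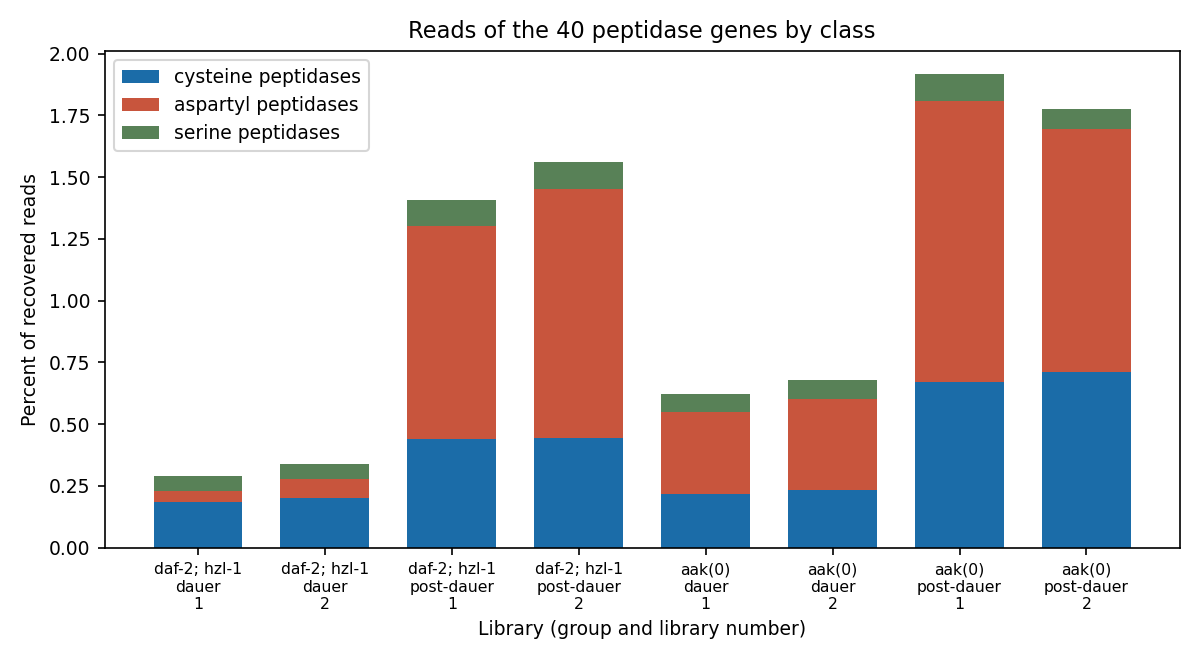
Percent of recovered reads (vertical axis) taken by the 40 genes in each of the 8 libraries, stacked by class (blue cysteine, red aspartyl, green serine). The aak-intact dauers have the shortest bars, 0.291% and 0.339%, and the aak(0) dauers, at 0.622% and 0.680%, stand between them and the post-dauers.

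The order of the genes by level differed between the groups. In aak-intact dauers the highest was cpl-1 at 973 ± 65.9 FPKM (mean ± SD, n = 2), followed by cpz-1 at 307 ± 50, cpr-6 at 288 ± 56.1 and asp-4 at 229.9 ± 68.7, with overlapping values among the latter 3. In aak-intact post-dauers asp-1 led at 2303 ± 337 FPKM, followed by asp-6 at 1822 ± 239, cpl-1 at 1517 ± 20, asp-3 at 1404 ± 152 and cpr-6 at 1011 ± 53.9. Values of cpl-1 and asp-3 overlapped there, and all other neighbours in that order stood apart. The aak(0) dauers had asp-1 first, at 1056 ± 155 FPKM, then asp-6 at 817 ± 65.2 and cpl-1 at 739.7 ± 68.9, the latter 2 overlapping. In aak(0) post-dauers asp-1 (2516 ± 629.8) and asp-6 (2437 ± 376) overlapped, and cpr-1 came next by its mean (1716 ± 282), overlapping asp-3 and cpr-4. Of the 34 tested genes, 25 had their lowest group mean in aak-intact dauers. The share over all tested genes is not given. On FPKM the median of all tested genes was itself higher than in these dauers, by log2 0.34 in their post-dauers and 0.41 in aak(0) dauers.

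**Figure D2:**
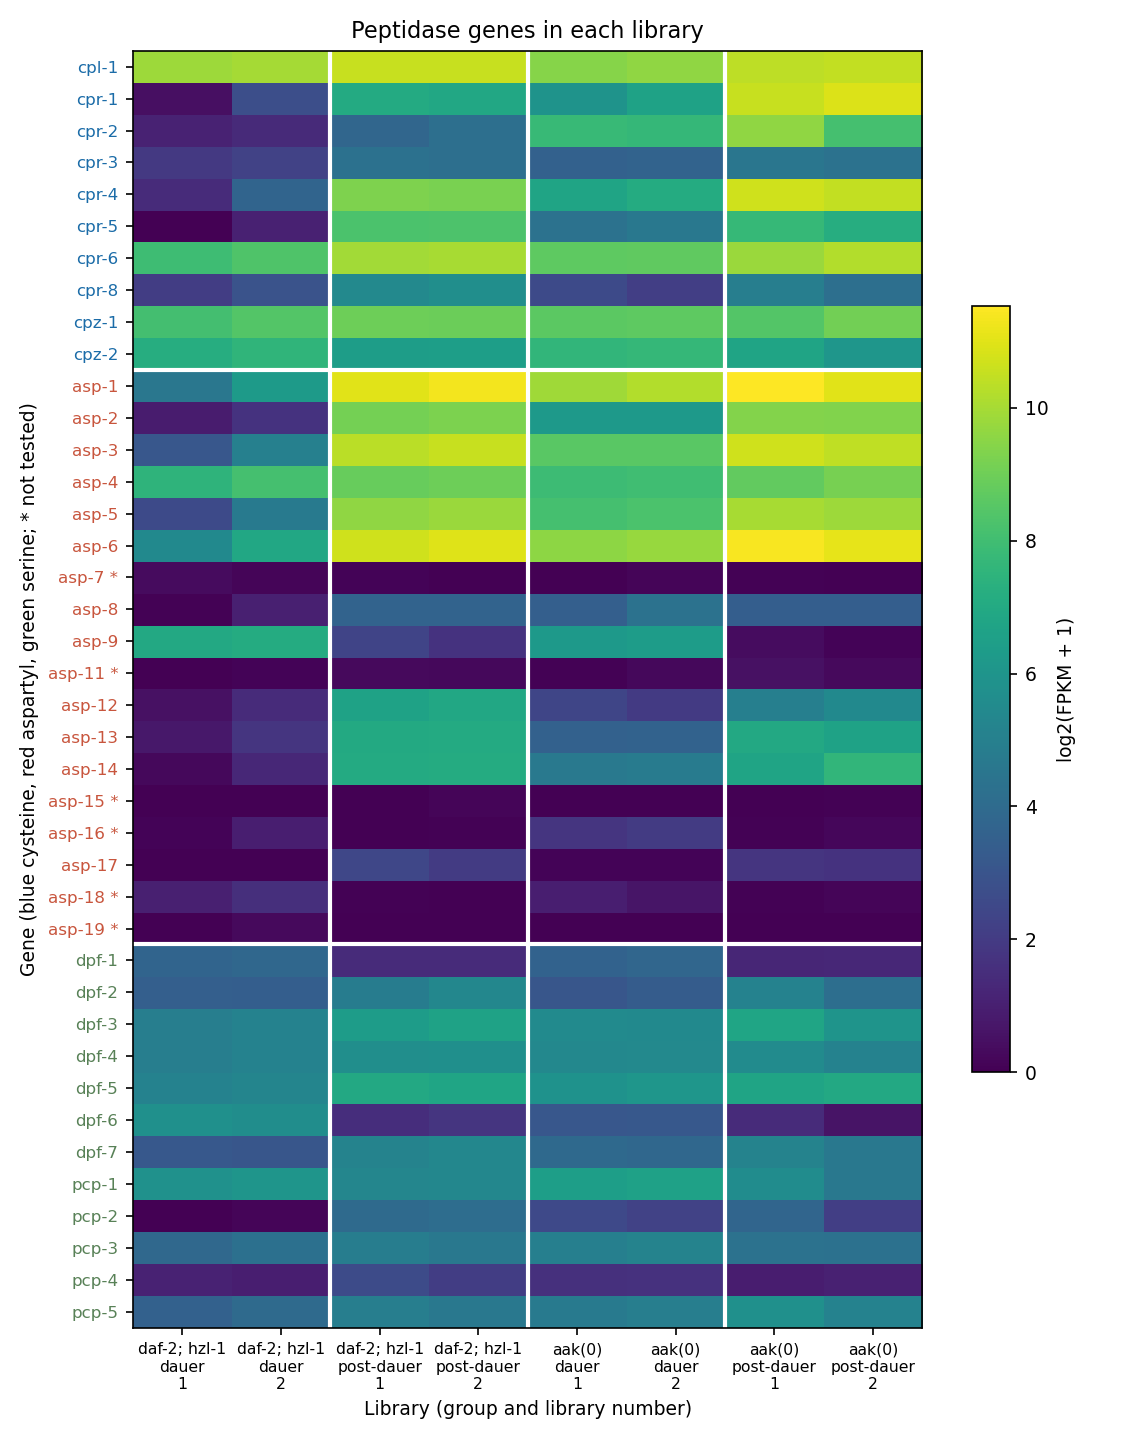
Level of each of the 40 genes, as log2(FPKM + 1) on the colour scale, in each of the 8 libraries (columns), with genes in rows by class and an asterisk where the gene was not tested. Most asp and cpr rows are darkest in the aak-intact dauers, where 25 of the 34 tested genes had their lowest mean, while cpl-1, cpr-6, cpz-1 and asp-4 are bright in all columns. The share of all tested genes lowest in that group is not given.

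Replicate levels of these genes spread most in the aak-intact dauers. There 9 of the 34 tested genes (26.5%) stood more than 2-fold apart on FPKM + 1, against 10.7% of all 15365 tested genes. Library 2 was the higher for 29 of the 34, as it was for 10975 of the 15365. In aak-intact post-dauers and in aak(0) dauers 0 of the 34 stood so far apart, and in aak(0) post-dauers 2 did (5.88%, against 15.7% of all tested genes).

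In both genotypes stage went with age (96 h against 192 h) and with the temperature shift, and these cannot be told apart. With that limit, the comparison of post-dauers with dauers in the aak-intact genotype asked which peptidase genes change when animals leave the arrest. Most were higher after it: 29 of the 34 tested genes rose and 4 fell by limma at an adjusted p under 0.05, where 39.4% of all 15365 tested genes rose and 27.8% fell. Without asp-17, which entered the test through its post-dauer level here, the count was 28 of 33. All 12 tested aspartyl genes were called, 11 of them higher, and all 10 cysteine genes, 9 of them higher. The aspartyl count and the medians below keep asp-17. Of the 12 serine peptidase genes, 9 rose and 2 fell. The median log2 change was 2.14 over the 34 genes and 0.34 over all tested genes, with class medians of 5.75 (aspartyl), 2.48 (cysteine) and 1.16 (serine). Log2 changes are on the log2(FPKM + 1) scale, which understates changes of genes with low FPKM, and are given ± SE. Genes were named partly because their groups did not overlap. Where groups are said to stand apart below, this describes the values and adds no support to the call.

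Among the aspartyl genes asp-2 (V:9203077-9204734) changed most. It stood at 0.86 and 2.25 FPKM in aak-intact dauers and 549 and 602 in their post-dauers, a difference of log2 7.87 ± 0.25, limma adjusted p = 5.63e-06. The gene asp-3 (X:6791064-6792715), a lysosomal cathepsin D that acts in necrotic death of neurons together with asp-4, went from 7.72 and 31.1 to 1297 and 1512 FPKM (log2 6.39 ± 0.54, limma adjusted p = 0.000101). In both genes the second dauer library was the higher, and both dauer libraries stood far below both post-dauer libraries.

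The genes with the highest post-dauer levels, asp-1 and asp-6, rose from already detectable levels. The intestinal gene asp-1 (V:19049461-19050825) stood at 22.8 and 76.4 FPKM in dauers and 2065 and 2541 in post-dauers (log2 5.74 ± 0.51, limma adjusted p = 0.000132). The gene asp-6 (V:8267511-8268937) stood at 43.8 and 119.5 against 1653 and 1991 FPKM (log2 4.63 ± 0.43, limma adjusted p = 0.000146). The groups did not overlap for either gene. Close to asp-6, asp-5 went from 5.11 and 26.1 to 774 and 902 FPKM (log2 6.02 ± 0.61, limma adjusted p = 0.000208), and asp-12 from 0.45 and 1.66 to 97.9 and 118.8 FPKM (log2 5.79 ± 0.35, limma adjusted p = 3.25e-05).

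The remaining aspartyl genes differed among themselves. Both asp-13 (from 0.67 and 2.41 to 125 and 131 FPKM, log2 5.76 ± 0.33, limma adjusted p = 2.73e-05) and asp-14 (from 0.20 and 1.45 to 129.8 and 134 FPKM, log2 6.28 ± 0.39, limma adjusted p = 3.49e-05) were far higher in both post-dauer libraries than in either dauer library. The gene asp-8 reached only 11.8 and 11.7 FPKM from 0.06 and 1.03 (log2 3.12 ± 0.39, limma adjusted p = 0.000546). Listed at 0 in both dauer libraries, asp-17 stood at 4.52 and 2.97 FPKM in post-dauers, and since this group alone took it past the FPKM minimum, no test is read from its call.

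The genes asp-4 and asp-9 differed from these. The ubiquitous lysosomal gene asp-4 (X:13218977-13221462) was high in dauers, at 181 and 278 FPKM, and stood at 464 and 507 in post-dauers (log2 1.11 ± 0.23, limma adjusted p = 0.00534). On the recovered reads edgeR did not call it (adjusted p = 0.0591). The gene asp-9 (IV:6185888-6189205) went the other way, from 122.3 and 134 FPKM in dauers to 4.21 and 2.27 in post-dauers (log2 -4.97 ± 0.27, limma adjusted p = 2.18e-05), 39.6-fold lower by group means. Of the 12 aspartyl genes that limma tested it alone was called lower.

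Cysteine peptidase genes rose by very different amounts. The cathepsin B gene cpr-5 (V:1132598-1134036) was listed at 0 in one dauer library and at 1.07 FPKM in the other, and stood at 307 and 319 in post-dauers (log2 7.77 ± 0.36, limma adjusted p = 1.41e-05). Its neighbour cpr-8 went from 3.25 and 6.64 to 42.4 and 50.6 FPKM (log2 3.05 ± 0.37, limma adjusted p = 0.000456). The gene of a secreted cathepsin B, cpr-4 (V:6614674-6615845), went from 1.67 and 12.2 to 629.8 and 598 FPKM (log2 6.69 ± 0.65, limma adjusted p = 0.000183). For all 3 genes every post-dauer library exceeded every dauer library.

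The gut gene cpr-1 (V:11975515-11976756) stood at 0.37 and 5.83 FPKM in dauers and 130.1 and 118 in post-dauers (log2 5.35 ± 0.68, limma adjusted p = 0.000561). Lower levels were reached by cpr-2, at 1.15 and 1.60 against 13.1 and 17.8 FPKM (log2 2.78 ± 0.45, limma adjusted p = 0.00161), and by cpr-3, at 2.75 and 3.91 against 18.9 and 17.8 FPKM (log2 2.17 ± 0.21, limma adjusted p = 0.00019). In all 3 genes the groups stood apart.

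The cysteine genes that were abundant in dauers changed least. The gene cpr-6 (X:6607203-6609045) stood at 248 and 328 FPKM in dauers and 973 and 1049 in post-dauers (log2 1.82 ± 0.20, limma adjusted p = 0.000288). The cathepsin L gene cpl-1 (V:16592572-16595346), needed in embryos for the breakdown of yolk proteins, stood at 927 and 1019.9 against 1531 and 1502 FPKM (log2 0.64 ± 0.14, limma adjusted p = 0.00651). The cathepsin Z gene cpz-1, which acts in moulting, stood at 272 and 343 against 504 and 496 FPKM (log2 0.71 ± 0.23, limma adjusted p = 0.0274). Its relative cpz-2 (V:13381189-13383077) was the only cysteine gene that fell, from 145 and 184 to 85.2 and 86.6 FPKM (log2 -0.92 ± 0.24, limma adjusted p = 0.0128). By edgeR the calls of cpl-1 (adjusted p = 0.396) and cpz-1 (adjusted p = 0.339) were lost.

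Dipeptidyl peptidases of the dpf family cut dipeptides off the amino end of proteins, and their genes split by direction. The gene dpf-6 (III:8038241-8041374) fell from 54.4 and 48.9 FPKM in dauers to 1.88 and 2.39 in post-dauers (log2 -4.07 ± 0.30, limma adjusted p = 6.48e-05), 24.2-fold lower by group means. The gene dpf-1 (V:15471335-15476122) fell from 12.3 and 13.6 to 1.71 and 1.64 FPKM (log2 -2.38 ± 0.21, limma adjusted p = 0.000123). For both, every dauer library exceeded every post-dauer library.

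The other 5 dpf genes rose. The neighbours dpf-7 and dpf-5 went from 8.05 and 7.46 to 34.2 and 39.9 FPKM (log2 2.12 ± 0.22, limma adjusted p = 0.000251) and from 33.6 and 36.6 to 121.8 and 108 FPKM (log2 1.68 ± 0.16, limma adjusted p = 0.000149). The gene dpf-3, whose peptidase trims Argonaute proteins in the germline, went from 29.4 and 33.2 to 81.7 and 99.4 FPKM (log2 1.5 ± 0.27, limma adjusted p = 0.0027). For dpf-2 the values were 10.31 and 10.1 against 27.8 and 39.4 FPKM (log2 1.61 ± 0.34, limma adjusted p = 0.00502). For dpf-4 they were 29.3 and 34.02 against 51.4 and 52.0 FPKM (log2 0.69 ± 0.19, limma adjusted p = 0.017), and edgeR did not call it (adjusted p = 0.0708).

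Prolyl carboxypeptidases cleave after proline at the carboxyl end. Of their 5 genes pcp-2 (IV:9160640-9165127) changed most, from 0 and 0.10 FPKM in dauers to 14.9 and 16.3 in post-dauers (log2 3.99 ± 0.49, limma adjusted p = 0.000499). The gene pcp-4 went from 1.14 and 0.97 to 5.27 and 3.3 FPKM (log2 1.34 ± 0.26, limma adjusted p = 0.00338), and pcp-5 from 11.1 and 14.9 to 29.3 and 23.8 FPKM (log2 0.98 ± 0.27, limma adjusted p = 0.0168). The neighbour of pcp-2, pcp-3, stood at 13.8 and 18.2 against 28.7 and 23.4 FPKM (log2 0.67 ± 0.20, limma adjusted p = 0.0231), a call that edgeR did not make (adjusted p = 0.138). The gene pcp-1 (III:7758730-7761273) was the 1 tested gene that limma did not call, at 56.6 and 63.7 FPKM in dauers and 38.6 and 39.9 in post-dauers (adjusted p = 0.114), while edgeR called it lower (adjusted p = 0.00485).

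Scaling moved the balance of these calls. The all-gene median of 0.34 on FPKM was -0.01 under the TMM scaling of edgeR, which called 24 of the 36 genes it tested higher and 7 lower, where 33.1% of all 17050 genes it tested rose and 35.4% fell. The lower ones included 2 genes under the FPKM minimum, asp-16 (adjusted p = 0.00329) and asp-18 (adjusted p = 0.00141). No called gene reversed. Of the 40 genes, 27 were higher and 7 lower in post-dauers in the authors' deposited table at an adjusted p under 0.05. The share of all genes called in their test is not given here, so the count is not read as a result about these genes. Leaving out 1 of the 8 libraries at a time kept 28 of the 33 limma calls in every fit, and the 5 lost at least once were cpz-1, cpz-2, dpf-4, pcp-3 and pcp-5. The size of large changes depended on the aak-intact dauer libraries, which stood apart for many of these genes. Without library 1 and without library 2 the log2 change was 5.54 and 7.85 for cpr-4, 4.19 and 6.51 for cpr-1, 4.89 and 6.59 for asp-1, 5.45 and 7.33 for asp-3, and 4.95 and 7.10 for asp-5, all still called by limma.

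Markers of several tissues moved with the stage. Of 13 intestine marker genes tested, 7 rose and 3 fell, where 39.4% of all tested genes rose and 27.8% fell. The summed level of the intestine markers was 503 and 663 FPKM in aak-intact dauers and 1074 and 1016 in post-dauers. All 8 oocyte markers rose, from sums of 28.9 and 30.8 to 2833 and 2765 FPKM. All 7 neuron markers and all 6 pharynx markers fell, from sums of 1577 and 1753 to 280 and 246 FPKM and of 299 and 200 to 44 and 38.9 FPKM. Among defining markers, the intestinal GATA factor gene elt-2 stood at 15.6 and 18.9 FPKM in dauers and at 9.66 and 9.08 in post-dauers and fell (log2 -0.81 ± 0.20, limma adjusted p = 0.011), and no intestine marker was listed at 0 in any library. The share of rRNA reads was also higher in these dauers (12.8% and 3.49%) than in the post-dauers (0.711% and 0.559%). The part of these differences in the peptidase results was not tested.

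The same comparison was made in the aak(0) genotype. Of the 34 genes, 20 rose and 6 fell by limma, where 25.9% of all tested genes rose and 27% fell. The 20 and the median below keep asp-17, from whose call no test is read. By edgeR 23 of 36 genes rose and 9 fell, close to its 24 and 7 in the aak-intact genotype, where 25.0% of all genes it tested rose and 29.9% fell in aak(0). The median log2 change was 1.00 over the 34 genes and 0.02 over all tested genes. All 20 that rose had also risen in the aak-intact genotype. The genes asp-9, cpz-2, dpf-1 and dpf-6 fell in both genotypes, and pcp-3 rose in one and fell in the other.

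The largest rises here were those of cysteine and aspartyl genes. The gut gene cpr-1 went from 60.4 and 98.9 FPKM in aak(0) dauers to 1517 and 1916 in aak(0) post-dauers (log2 4.45 ± 0.68, limma adjusted p = 0.00213). The gene cpr-4 went from 105 and 136 to 1653 and 1405 FPKM (log2 3.66 ± 0.65, limma adjusted p = 0.00391). These were the highest values of both genes in the 8 libraries. The gene cpr-5 went from 19.2 and 23.8 to 209 and 143 FPKM (log2 2.96 ± 0.36, limma adjusted p = 0.000919) and cpr-8 from 5.05 and 3.46 to 29.2 and 17.7 FPKM (log2 2.19 ± 0.37, limma adjusted p = 0.00314).

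Of the aspartyl genes, asp-13 rose from 10.8 and 11.2 to 125 and 100.4 FPKM (log2 3.24 ± 0.33, limma adjusted p = 0.000487). The gene asp-2 rose from 73.5 and 75.0 to 678 and 646 FPKM (log2 3.14 ± 0.25, limma adjusted p = 0.000233), asp-12 from 4.31 and 2.95 to 30.1 and 42.8 FPKM (log2 3.01 ± 0.35, limma adjusted p = 0.000794) and asp-14 from 24.6 and 26.7 to 106 and 189.8 FPKM (log2 2.42 ± 0.39, limma adjusted p = 0.00262). The groups stood apart for all 4. The genes asp-3 (381 and 383 to 1677 and 1390.2 FPKM, log2 2.00 ± 0.54, limma adjusted p = 0.0189), asp-5 (280.1 and 306 to 1037 and 905 FPKM, log2 1.72 ± 0.61, limma adjusted p = 0.0495) and asp-6 (771 and 863 to 2703 and 2171 FPKM, log2 1.57 ± 0.43, limma adjusted p = 0.0198) rose from dauer levels that were already high.

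Dauer levels of asp-1 were already high in this genotype, at 946 and 1165 FPKM against 2961 and 2070.2 in post-dauers. Limma did not call that difference (adjusted p = 0.0831), and edgeR called it (adjusted p = 0.0461). The gene asp-4 rose from 236 and 255 to 434 and 568 FPKM (log2 1.01 ± 0.23, limma adjusted p = 0.0107). The gene asp-8 stood at 10.29 and 19.2 FPKM in dauers and 10.02 and 9.92 in post-dauers and was not called (adjusted p = 0.361 by limma). The low gene asp-17 stood at 0.09 and 0.08 FPKM in dauers and 2.45 and 2.25 in post-dauers. It passed the FPKM minimum only through its aak-intact post-dauer level, so no test is read from its call here either.

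Among genes that were abundant at both stages, cpr-6 and cpl-1 rose. The gene cpr-6 stood at 404 and 418 FPKM in aak(0) dauers and 893 and 1186 in post-dauers (log2 1.32 ± 0.20, limma adjusted p = 0.00196), and cpl-1 at 691 and 788 against 1317 and 1437 FPKM (log2 0.90 ± 0.14, limma adjusted p = 0.00246). The gene cpz-1 stood at 398 and 404 against 352 and 542 FPKM, with overlapping groups (limma adjusted p = 0.674). For cpr-3 the values were 11.1 and 11.7 against 22.1 and 19.1 FPKM (log2 0.80 ± 0.21, limma adjusted p = 0.0188). The gene cpr-2 stood at 214 and 207 FPKM in dauers and at 776 and 275 in post-dauers, a pair of libraries far apart, and limma did not call it (adjusted p = 0.0731) while edgeR did (adjusted p = 0.0149).

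Falls were led by asp-9, from 71.8 and 83.1 to 0.30 and 0.07 FPKM (log2 -6.05 ± 0.27, limma adjusted p = 5.05e-05). The gene dpf-1 fell from 11.2 and 13.03 to 1.35 and 1.41 FPKM (log2 -2.46 ± 0.21, limma adjusted p = 0.000281) and dpf-6 from 7.88 and 8.02 to 1.66 and 0.53 FPKM (log2 -2.15 ± 0.30, limma adjusted p = 0.00152). The gene cpz-2 fell from 191 and 205 to 105 and 65.4 FPKM (log2 -1.25 ± 0.24, limma adjusted p = 0.00523), pcp-1 from 87.1 and 96.1 to 47.3 and 23.9 FPKM (log2 -1.41 ± 0.30, limma adjusted p = 0.00748) and pcp-3 from 30.2 and 34.2 to 19.2 and 18.4 FPKM (log2 -0.74 ± 0.20, limma adjusted p = 0.0209).

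Of the other serine peptidase genes, dpf-2 (7.58 and 9.10 to 33.6 and 17.1 FPKM, log2 1.43 ± 0.34, limma adjusted p = 0.0116), dpf-3 (45.5 and 44.02 to 108 and 60.7 FPKM, log2 0.84 ± 0.27, limma adjusted p = 0.0378), dpf-5 (58.4 and 65.2 to 107 and 125 FPKM, log2 0.89 ± 0.16, limma adjusted p = 0.0036) and dpf-7 (14.5 and 13.6 to 34.5 and 23.7 FPKM, log2 0.98 ± 0.22, limma adjusted p = 0.0101) rose. Limma called none of dpf-4 (40.2 and 42.4 against 46.4 and 33.3 FPKM, adjusted p = 0.797), pcp-2 (4.84 and 3.78 against 12.5 and 3.42, adjusted p = 0.384), pcp-4 (2.02 and 2.11 against 0.92 and 1.09, adjusted p = 0.0835) and pcp-5 (26.2 and 29.6 against 54.4 and 33.6, adjusted p = 0.107). By edgeR pcp-4 was lower (adjusted p = 0.0454) and pcp-5 higher (adjusted p = 0.0372). Of the 40 genes, 22 were higher and 7 lower in aak(0) post-dauers in the authors' deposited table. For this count too the share of all genes is not given.

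Leaving out an aak(0) dauer library lowered both the count of peptidase genes and that of all genes. Without either aak(0) dauer library 17 of the 34 genes were called, in place of 26, while the count over all tested genes was 5263 and 4964 without libraries 1 and 2, in place of 8130. In all, 16 of the 26 calls were kept in all 8 fits that left out a library. Lost at least once were asp-3, asp-4, asp-5, asp-6, cpr-3, dpf-2, dpf-3, dpf-7, pcp-1 and pcp-3. Of the 13 intestine markers, 6 rose and 4 fell in this comparison, with sums of 938 and 1013 FPKM in dauers and 1198 and 1237 in post-dauers. All 8 oocyte markers rose, from sums of 527 and 503 to 2272 and 2358 FPKM. Of 7 neuron markers 5 fell, from sums of 1111 and 1275 to 400.06 and 437 FPKM, and of 6 pharynx markers 5 fell, from 139 and 128 to 63.1 and 69.1 FPKM. Of 6 body wall muscle markers 1 rose and 4 fell, with sums of 1439 and 1552 in dauers and 1142 and 1297 FPKM in post-dauers. Their part in the result was not tested.

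**Figure D3:**
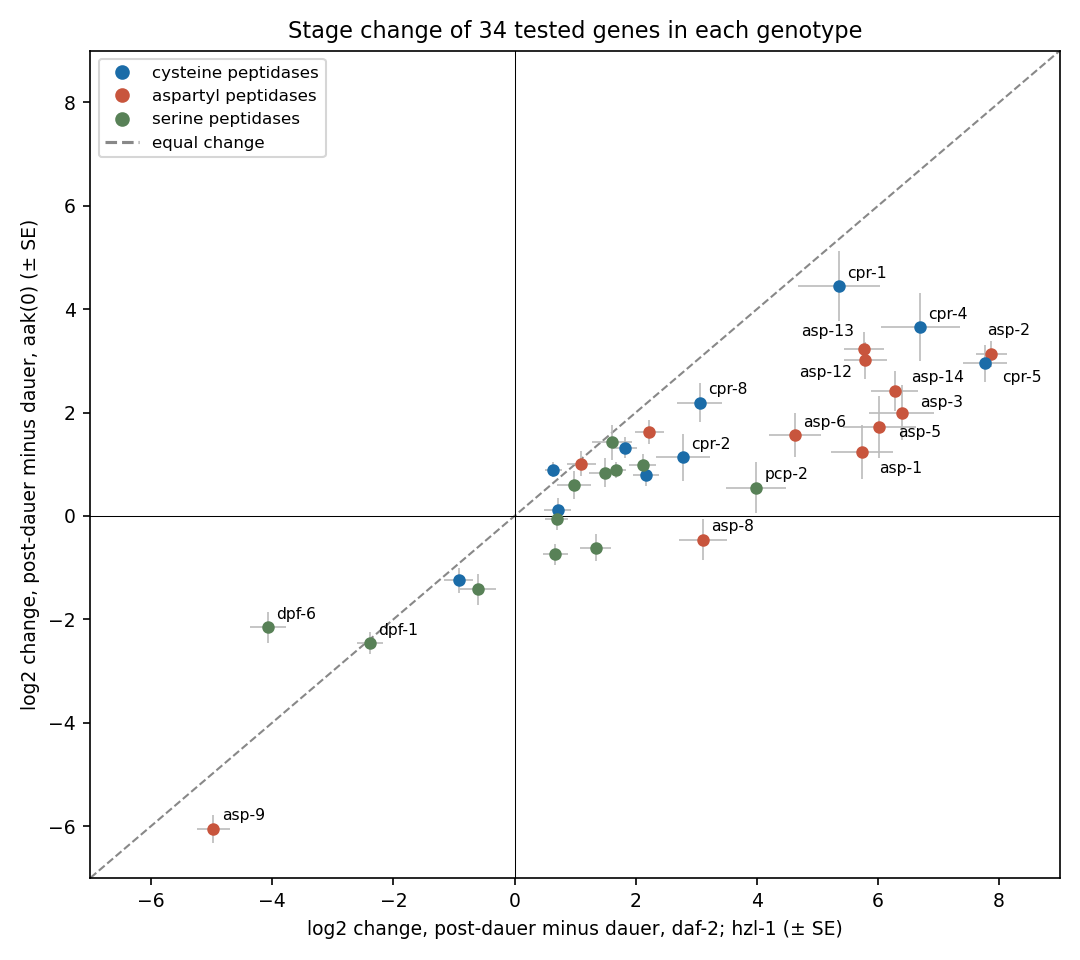
Log2 change from dauer to post-dauer (± SE, on log2(FPKM + 1)) of the 34 tested genes in the aak-intact genotype (horizontal axis) and in aak(0) (vertical axis), with the dashed line marking equal change. Genes such as asp-2 (7.87 and 3.14) and cpr-5 (7.77 and 2.96) lie far below the line, while dpf-1 (-2.38 and -2.46) lies near it.

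The comparison of the genotypes in dauers asked what differs during the arrest between animals labelled with and without aak(0). Its direction rests on those labels, which the aak-1 and aak-2 levels above do not establish. Many of the peptidase genes were higher in aak(0) dauers, where 19 of the 34 tested genes were called higher and 1 lower by limma, against 25.5% of all tested genes called higher and 3.60% lower. By class, 9 of 12 aspartyl genes, 5 of 10 cysteine genes and 5 of 12 serine genes were called higher. The median log2 difference was 0.89 over the 34 genes and 0.41 over all tested genes.

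The cathepsin B gene cpr-2 (V:16533004-16534110) differed most. Its dauer levels were 1.15 and 1.60 FPKM in aak-intact and 214 and 207 in aak(0) animals (log2 6.48 ± 0.45, limma adjusted p = 0.0003), 153-fold apart by group means. The gene cpr-1 stood at 0.37 and 5.83 against 60.4 and 98.9 FPKM (log2 4.68 ± 0.68, limma adjusted p = 0.00428), cpr-4 at 1.67 and 12.2 against 105 and 136 FPKM (log2 4.35 ± 0.65, limma adjusted p = 0.00481), and cpr-5 at 0 and 1.07 against 19.2 and 23.8 FPKM (log2 3.96 ± 0.36, limma adjusted p = 0.000804). In each of the 4 both aak(0) libraries exceeded both aak-intact ones.

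Aspartyl genes followed with similar differences. The gene asp-2 stood at 0.86 and 2.25 FPKM in aak-intact and 73.5 and 75.0 in aak(0) dauers (log2 4.94 ± 0.25, limma adjusted p = 0.000168), and asp-1 at 22.8 and 76.4 against 946 and 1165 FPKM (log2 4.62 ± 0.51, limma adjusted p = 0.00164). The lysosomal gene asp-3 stood at 7.72 and 31.1 against 381 and 383 FPKM (log2 4.52 ± 0.54, limma adjusted p = 0.00201) and asp-5 at 5.11 and 26.1 against 280.1 and 306 FPKM (log2 4.51 ± 0.61, limma adjusted p = 0.00318). For asp-14 the values were 0.20 and 1.45 against 24.6 and 26.7 FPKM (log2 3.96 ± 0.39, limma adjusted p = 0.00107). None of these 5 genes had overlapping groups.

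Smaller differences were called for asp-6 (43.8 and 119.5 against 771 and 863 FPKM, log2 3.47 ± 0.43, limma adjusted p = 0.00225) and asp-8 (0.06 and 1.03 against 10.29 and 19.2 FPKM, log2 3.36 ± 0.39, limma adjusted p = 0.00193). The same held for asp-13 (0.67 and 2.41 against 10.8 and 11.2 FPKM, log2 2.33 ± 0.33, limma adjusted p = 0.00386) and asp-12 (0.45 and 1.66 against 4.31 and 2.95 FPKM, log2 1.22 ± 0.35, limma adjusted p = 0.0417). Groups stood apart for all 4. Next to asp-5, asp-6 and asp-12 the untested gene asp-11 stood at 0.05 and 0.20 FPKM in aak(0) dauers. Limma called neither asp-4 (181 and 278 against 236 and 255 FPKM, adjusted p = 0.724) nor asp-17 (0 and 0 against 0.09 and 0.08 FPKM, adjusted p = 0.744).

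Of the cysteine genes abundant in dauers none was called by limma. The gene cpr-6 stood at 248 and 328 against 404 and 418 FPKM (adjusted p = 0.0902) and cpl-1 at 927 and 1019.9 against 691 and 788 FPKM (adjusted p = 0.0785), the latter lower in both aak(0) libraries. Other scalings called cpl-1 lower: limma with centred values (adjusted p = 0.0295) or TMM-scaled FPKM (adjusted p = 0.0399), and DESeq2 (adjusted p = 0.00716). TMM-scaled FPKM are FPKM divided by the FPKM total of the library times its TMM factor. By edgeR with TMM it was not called. The gene cpz-1 stood at 272 and 343 against 398 and 404 FPKM (adjusted p = 0.232), and cpz-2 at 145 and 184 against 191 and 205 FPKM (adjusted p = 0.423). The gene cpr-3 was called higher (log2 1.53 ± 0.21, limma adjusted p = 0.00366), and cpr-8 was not, at 3.25 and 6.64 against 5.05 and 3.46 FPKM (adjusted p = 0.816 by limma).

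The 1 gene that the main limma fit called lower in aak(0) dauers was dpf-6, at 54.4 and 48.9 FPKM in aak-intact and 7.88 and 8.02 in aak(0) dauers (log2 -2.55 ± 0.30, limma adjusted p = 0.00196), with no overlap. Among serine peptidase genes pcp-2 was higher (0 and 0.10 against 4.84 and 3.78 FPKM, log2 2.33 ± 0.49, limma adjusted p = 0.0158). Smaller differences, higher in aak(0), were called for pcp-3 (log2 0.97 ± 0.20, limma adjusted p = 0.0152), pcp-5 (log2 1.06 ± 0.27, limma adjusted p = 0.0305), dpf-5 (log2 0.80 ± 0.16, limma adjusted p = 0.0119) and dpf-7 (log2 0.78 ± 0.22, limma adjusted p = 0.0405). Limma called none of dpf-1 (adjusted p = 0.775), dpf-2 (adjusted p = 0.59), dpf-3 (adjusted p = 0.208), dpf-4 (adjusted p = 0.191), pcp-1 (adjusted p = 0.175) and pcp-4 (adjusted p = 0.135). The gene asp-9, which fell with stage, stood at 122.3 and 134 against 71.8 and 83.1 FPKM and was not called by limma (adjusted p = 0.0861), while edgeR called it lower (adjusted p = 0.0284).

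The small differences depended on scaling. The all-gene median of 0.41 on FPKM was 0.05 under the TMM scaling of edgeR, which called 15 of the genes higher and 2 lower, where 14.8% of all genes it tested were higher and 7.99% lower. With log2 values centred on the median of each library limma called 14 higher and 3 lower, and with TMM-scaled FPKM 15 higher and 3 lower. By edgeR the calls of asp-12 (adjusted p = 0.0678), dpf-5 (adjusted p = 0.322), dpf-7 (adjusted p = 0.153) and pcp-3 (adjusted p = 0.0894) were lost. Over all tested genes 1305 and 1414 were called without aak(0) dauer libraries 1 and 2, in place of 4464. In all fits that left out a library 14 of the 20 calls were kept, and asp-12, dpf-5, dpf-7, pcp-2, pcp-3 and pcp-5 were lost at least once.

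The spread of the aak-intact dauers touches the size of these differences. Without library 1 of that group the log2 difference of asp-1 was 3.76, and without library 2 it was 5.47. For asp-3 the corresponding values were 3.58 and 5.46, for cpr-1 3.52 and 5.84, and for cpr-4 3.19 and 5.5, with limma calls in every case. Marker genes of several tissues differed as well: 7 of 13 intestine markers were called higher and 0 lower by limma, 8 of 8 oocyte markers higher and 4 of 6 body wall muscle markers higher. Over all tested genes limma called 25.5% higher and 3.60% lower. Summed intestine markers stood at 503 and 663 FPKM in aak-intact and 938 and 1013 in aak(0) dauers, and summed oocyte markers at 28.9 and 30.8 against 527 and 503. Summed sperm markers were also higher in aak(0), at 5.04 and 10.2 against 57.4 and 61.8 FPKM. Other sums were lower there, at 298.5 and 200 against 139 and 128 FPKM for pharynx and 1577 and 1753 against 1111 and 1275 for neuron markers. The defining gene elt-2 stood at 15.6 and 18.9 against 16.2 and 20.1 FPKM, with no call (log2 0.07 ± 0.20, limma adjusted p = 0.839). Their part in the result was not tested.

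In post-dauers the genotypes differed in few of the genes, with directions that again rest on the labels. Limma called 2 of the 34 higher in aak(0), cpr-1 and cpr-2, and 2 lower, asp-9 and pcp-4, where 4.22% of all tested genes were higher and 0.443% lower. The median log2 difference was -0.16 over the 34 genes and 0.13 over all tested genes.

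The 2 genes called higher were cathepsin B genes. Levels of cpr-1 were 130.1 and 118 FPKM in aak-intact and 1517 and 1916 in aak(0) post-dauers (log2 3.77 ± 0.68, limma adjusted p = 0.0323), 13.8-fold apart by group means. Levels of cpr-2 were 13.1 and 17.8 against 776 and 275 FPKM (log2 4.83 ± 0.45, limma adjusted p = 0.00386). Both were also higher in aak(0) dauers, as given above. The lower genes were asp-9, at 4.21 and 2.27 against 0.30 and 0.07 FPKM (log2 -1.81 ± 0.27, limma adjusted p = 0.0182), and pcp-4, at 5.27 and 3.3 against 0.92 and 1.09 FPKM (log2 -1.37 ± 0.26, limma adjusted p = 0.0349), both low in these animals. None of the 4 had overlapping groups.

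All 4 calls were lost in some fit that left out 1 library. Without aak-intact post-dauer library 1, 0 of the 34 genes were called by limma (limma adjusted p = 0.18 for cpr-1, 0.0535 for cpr-2, 0.106 for asp-9 and 0.195 for pcp-4), while with all 8 libraries 7 had an unadjusted p under 0.05. The count was 2 without aak-intact post-dauer library 2 and 1 without either aak(0) dauer library or without aak(0) post-dauer library 2. It was 6 without either aak-intact dauer library. Over all tested genes the count, 716 with all libraries, moved too: it was 90 and 175 without aak-intact post-dauer libraries 1 and 2, 263 and 236 without aak(0) dauer libraries 1 and 2, 342 without aak(0) post-dauer library 2, 1721 without library 1 of that group, and 1252 and 1249 without the aak-intact dauer libraries. The edgeR fit on all libraries called the same 4 genes in the same directions, where 3.38% of all genes it tested were higher and 0.786% lower.

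Several genes with large dauer differences were not called here. The levels of asp-1 were 2065 and 2541 against 2961 and 2070.2 FPKM (limma adjusted p = 0.931), those of asp-3 1297 and 1512 against 1677 and 1390.2 (adjusted p = 0.926 by limma), and those of asp-14 129.8 and 134 against 106 and 189.8 (limma adjusted p = 0.913), with overlapping groups in all 3. The levels of asp-2 were 549 and 602 against 678 and 646 FPKM (limma adjusted p = 0.691). The gene cpr-4 stood at 629.8 and 598 against 1653 and 1405 FPKM, apart in all libraries, yet limma did not call it (adjusted p = 0.314). Lower in both aak(0) libraries, asp-12 (97.9 and 118.8 against 30.1 and 42.8 FPKM) was called by neither the main limma fit nor edgeR with TMM. It was called lower by DESeq2 (adjusted p = 0.00178) and by limma with a pseudocount of 5 (adjusted p = 0.0156) or centred values (adjusted p = 0.043). DESeq2 also called cpr-8 lower (adjusted p = 0.0103). Of the 13 intestine markers and 8 oocyte markers, limma called 0 in this comparison, with 2 and 3 at an unadjusted p under 0.05.

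**Figure D4:**
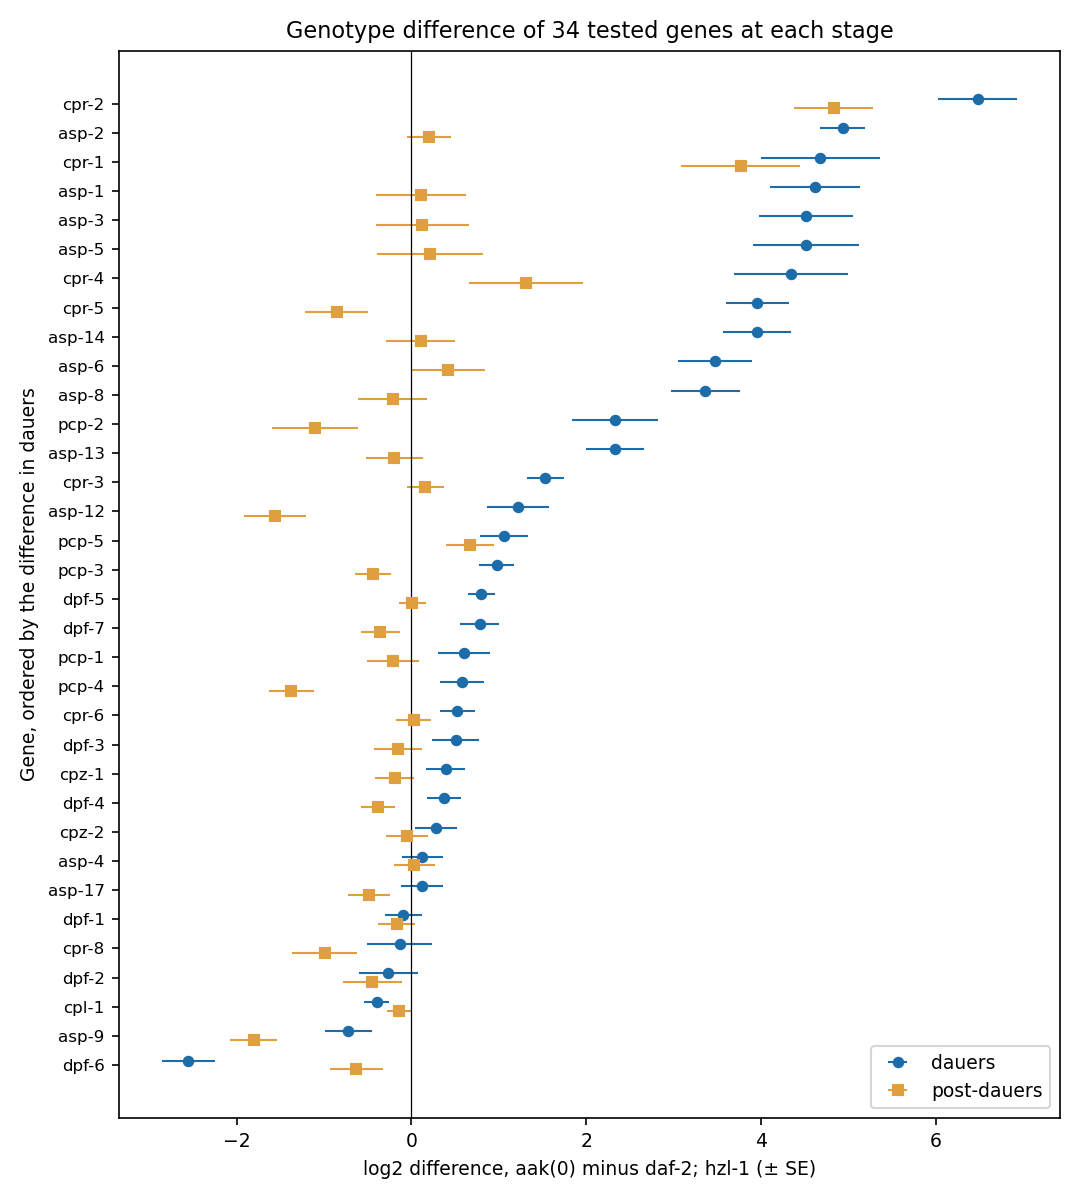
Log2 difference (± SE, on log2(FPKM + 1)) between aak(0) and aak-intact animals for each of the 34 tested genes, in dauers (blue circles) and post-dauers (orange squares), ordered by the dauer value. In dauers cpr-2 (6.48), asp-2 (4.94) and cpr-1 (4.68) lie far to the right, and in post-dauers only cpr-2 (4.83) and cpr-1 (3.77) were called higher by limma.

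The interaction asked whether the change from dauer to post-dauer differed between the genotypes, and is the change in aak(0) minus that in aak-intact animals. It shares its libraries with the comparisons above and restates their difference. Limma called 14 of the 34 genes with a lower change in aak(0) and 1 with a higher one, where 7.80% of all tested genes had a lower and 3.54% a higher change. The median was -1.11 over the 34 genes and -0.34 over all tested genes (-0.07 under the TMM scaling of edgeR).

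The largest differences in change were those of cpr-5 (log2 -4.82 ± 0.51, limma adjusted p = 0.00374), asp-2 (log2 -4.73 ± 0.36, limma adjusted p = 0.00172), asp-1 (log2 -4.50 ± 0.73, limma adjusted p = 0.0135), asp-3 (log2 -4.39 ± 0.76, limma adjusted p = 0.017) and asp-5 (log2 -4.30 ± 0.86, limma adjusted p = 0.0263). For these genes the aak(0) dauers lay between the aak-intact dauers and the post-dauers of both genotypes. Of the others called, asp-14 (log2 -3.85 ± 0.55, limma adjusted p = 0.00942), asp-8 (log2 -3.58 ± 0.56, limma adjusted p = 0.0119), pcp-2 (log2 -3.44 ± 0.70, limma adjusted p = 0.028), asp-6 (log2 -3.06 ± 0.60, limma adjusted p = 0.0254), asp-12 (log2 -2.78 ± 0.50, limma adjusted p = 0.0191), asp-13 (log2 -2.52 ± 0.47, limma adjusted p = 0.0209), pcp-4 (log2 -1.95 ± 0.36, limma adjusted p = 0.0211), pcp-3 (log2 -1.42 ± 0.29, limma adjusted p = 0.0282) and cpr-3 (log2 -1.37 ± 0.30, limma adjusted p = 0.0352) were lower in the same sense. The 1 gene with a higher value was dpf-6, which fell in both genotypes and by less in aak(0) (log2 1.92 ± 0.43, limma adjusted p = 0.0354). By edgeR the 15 calls were all kept, among 16 lower and 1 higher, where 7.79% of all genes it tested had a lower and 5.23% a higher change.

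The main limma fit did not call the interaction for cpr-1 (limma adjusted p = 0.544), whose levels were higher in aak(0) at both stages. Nor did it for cpr-2 (limma adjusted p = 0.14) or cpr-4 (limma adjusted p = 0.0824). By edgeR cpr-2 was lower (adjusted p = 0.0459), and DESeq2 called both cpr-2 (adjusted p = 0.00966) and cpr-4 (adjusted p = 0.00321) lower. Without a filter edgeR also called cpr-4 lower (adjusted p = 1.49e-05). The gene asp-9 was not called by limma (adjusted p = 0.113), while edgeR called it lower (adjusted p = 0.0161), as did DESeq2 (adjusted p = 0.000966), edgeR with the replicate block (adjusted p = 0.0269) and limma with a pseudocount of 0.1 (adjusted p = 0.0396). The count of calls was 2 and 3 without aak-intact post-dauer libraries 1 and 2, 3 and 2 without aak(0) dauer libraries 1 and 2, and 9 without aak(0) post-dauer library 2. Over all tested genes 1743 were called with all libraries, and in the same order 512, 552, 360, 426 and 1320 in these fits. The calls of asp-2 and cpr-5 were kept in all 8 of these fits, with limma adjusted p values of at most 0.0206 and 0.0298.

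Genes around the peptidases were described from lists of their inhibitors, of other lysosomal genes, of other peptidases and of regulators. In dauers limma called 1 of the 8 tested inhibitor genes higher in aak(0) (srp-3, log2 1.1 ± 0.30, limma adjusted p = 0.0343) and 1 lower (srp-2, log2 -0.99 ± 0.25, limma adjusted p = 0.0272). Of these 8 genes, 2 rose and 2 fell from dauer to post-dauer in aak-intact animals, with a median log2 change of -0.31, while edgeR called 0 higher and 4 lower. Over all tested genes limma called 39.4% higher and 27.8% lower with stage, and edgeR 33.1% and 35.4%. In dauers limma called 25.5% of all tested genes higher and 3.60% lower in aak(0). The cystatin gene cpi-1, which encodes an inhibitor of cysteine peptidases, stood at 162 and 273 FPKM in aak-intact dauers, 323 and 439 in their post-dauers, 218 and 238 in dauers of the aak(0) genotype, and 1381 and 1012 in its post-dauers. By limma it rose with stage in both genotypes (log2 0.84 ± 0.29, limma adjusted p = 0.0398 in aak-intact, not called by edgeR at an adjusted p of 0.0991, and log2 2.37 ± 0.29, limma adjusted p = 0.000963 in aak(0)) and was higher in aak(0) post-dauers (log2 1.65 ± 0.29, limma adjusted p = 0.0308). The other cystatin gene, cpi-2, ranged from 303 to 578 FPKM with no call in any comparison by limma, as did the intracellular serpin gene srp-6, from 12.9 to 31.4 FPKM. Higher in aak(0) post-dauers were also the serpin genes srp-1 (log2 1.18 ± 0.20, limma adjusted p = 0.0269) and srp-2 (log2 1.49 ± 0.25, limma adjusted p = 0.0269).

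Of 31 lysosomal membrane and hydrolase genes tested, 16 rose and 2 fell with stage in aak-intact animals (median log2 change 0.91), 11 rose and 3 fell in aak(0), and 10 were higher and 0 lower in aak(0) dauers. The rises were 51.6% and 35.5% of the list, against 39.4% and 25.9% of all tested genes, and the dauer calls 32.3%, against 25.5%. By edgeR 5 of 32 were called in dauers, all higher, or 15.6%, a share near the 14.8% of all genes it tested. The gene nuc-1, which encodes a lysosomal DNase, stood at 1.29 and 2.03 FPKM in aak-intact dauers, 57.3 and 75.4 in their post-dauers, 26.6 and 28.6 in dauers of the aak(0) genotype, and 114.8 and 107.7 in its post-dauers. Its dauer difference was log2 3.44 ± 0.21, limma adjusted p = 0.000216. The sphingomyelinase gene asm-3 (log2 2.50 ± 0.28, limma adjusted p = 0.00171) and the acid ceramidase genes asah-2 (log2 2.04 ± 0.23, limma adjusted p = 0.00175) and asah-1 (log2 3.52 ± 0.47, limma adjusted p = 0.00303) were also higher in aak(0) dauers.

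Of 26 other peptidase genes tested, 15 rose and 4 fell with stage in aak-intact animals (median log2 change 1.19), 11 rose and 4 fell in aak(0), and 7 were higher and 0 lower in aak(0) dauers. The rises were 57.7% and 42.3% of the list, against 39.4% and 25.9% of all tested genes. The dauer share of 26.9% was near the 25.5% of all tested genes, as was the edgeR share of 15.4% near its 14.8%. The serine carboxypeptidase gene F13D12.6, of the cathepsin A type, stood at 3.92 and 3.67 FPKM in aak-intact dauers, 164 and 185 in their post-dauers, 22.4 and 19.4 in dauers of the aak(0) genotype, and 166 and 124 in its post-dauers. Its dauer difference was log2 2.19 ± 0.19, limma adjusted p = 0.000674. The trypsin-like gene try-1 (log2 2.63 ± 0.29, limma adjusted p = 0.00148) and the aminopeptidase genes app-1 (log2 0.86 ± 0.13, limma adjusted p = 0.00519) and pam-1 (log2 0.63 ± 0.14, limma adjusted p = 0.019) were called higher there too. By edgeR 4 of the genes were higher and 1 lower in aak(0) dauers, and neither app-1 (adjusted p = 0.222) nor pam-1 (adjusted p = 0.578) was called.

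Of the 11 regulators 1 rose and 8 fell with stage in aak-intact animals (median log2 change -0.81), and 0 rose and 7 fell in aak(0). By limma 39.4% of all tested genes rose and 27.8% fell in aak-intact animals, and 25.9% rose and 27% fell in aak(0). The gene of HLH-30, the worm TFEB that drives lysosome and autophagy genes, fell from 73.9 and 69.6 FPKM in aak-intact dauers to 25.5 and 22.7 in their post-dauers (log2 -1.54 ± 0.15, limma adjusted p = 0.000189). It stood at 73.1 and 83.2 FPKM in aak(0) dauers and was not called between the genotypes. In dauers limma called mxl-2 (log2 1.17 ± 0.19, limma adjusted p = 0.00616) and elt-7 (log2 0.70 ± 0.20, limma adjusted p = 0.0419) higher and daf-16 (log2 -0.83 ± 0.17, limma adjusted p = 0.0131) lower in aak(0). By edgeR 0 of the regulators were higher and 3 lower there, with no call for mxl-2 (adjusted p = 0.083) or elt-7 (adjusted p = 0.594). Over all tested genes limma called 25.5% higher and 3.60% lower there, and edgeR 14.8% and 7.99%.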

How the data were processed

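RNA of whole C. elegans was sequenced after enrichment for polyadenylated transcripts, in 4 groups of 2 libraries. The submitters' processing notes name Trimmomatic 0.35, STAR 2.7.1a, RSEM, DESeq2 1.30.1 and build WBcel235, with no role or order, and the annotation release is not given in the sources used here. The authors deposited FPKM per gene for all libraries, and for each genotype a table of values divided by a size factor per library, a signal from which whole reads were recovered (100% of values were whole within 0.001), giving 13.99 to 26.98 M reads a library. Per the file headers those tables also hold the authors' DESeq2 log2 fold changes and adjusted p-values.

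The main test was limma 3.58.1 (R 4.3.3, trended prior) on log2(FPKM + 1) with all 8 libraries in 1 fit, over 15365 genes (mean FPKM of 1 or more), with Benjamini-Hochberg adjustment and a threshold of 0.05. It had 4 residual and 2.69 prior degrees of freedom. Alternatives were edgeR 4.0.16 (quasi-likelihood, TMM, 17050 genes) and DESeq2 1.42.0 on the recovered reads, other pseudocounts, filters and scalings, a replicate block, fits of only the groups compared, and fits without 1 library each, in which the lone library of a group is assumed to vary like the other groups. The scripts were tested on simulated data.

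Genes named are, in each comparison, the called genes with groups that do not overlap, up to the 10 largest rises and 10 largest falls. For genes named by this rule, groups that stand apart follow from the rule. Always named are cpl-1, cpr-1, cpr-6, cpz-1, cpz-2, asp-1, asp-3, asp-4 and every tested dpf and pcp gene. From the surrounding lists up to 4 called genes by smallest adjusted p are named, and always cpi-1, cpi-2, srp-6 and elt-2. Other genes are named to account for every member, and were chosen after their values were seen. Members and lists were chosen with earlier results of these data known. FPKM scale with the total of each library, so a shift in highly expressed genes moves all others. PCR duplicates were not identifiable from the files, and counting error covers only part of the error.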

Additional observations from a re-analysis of the deposited data

Results flagged for a closer look

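By the limma interaction over all tested genes, the change from dauer to post-dauer was called different between the genotypes for 15 of the 34 tested peptidase genes. Of all tested genes 7.80% were called with a lower and 3.54% with a higher change in aak(0). Each gene's value below is the log2 change in aak(0) minus that in aak-intact animals. Among aspartyl genes it was -4.50 for asp-1, -4.73 for asp-2, -4.39 for asp-3, -4.30 for asp-5, -3.06 for asp-6, -3.58 for asp-8, -2.78 for asp-12, -2.52 for asp-13 and -3.85 for asp-14. Among cysteine genes it was -4.82 for cpr-5 and -1.37 for cpr-3. Among serine peptidase genes it was -3.44 for pcp-2, -1.42 for pcp-3, -1.95 for pcp-4 and 1.92 for dpf-6. Of these, asp-2 and cpr-5 were called in all 8 fits that left out 1 library, and the other 13 were lost in at least 1.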

How the results depend on the processing

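No called result for a peptidase gene changed sign under any alternative: over 98 called gene and comparison pairs, 1815 values kept their call and 238 lost it. Leaving out 1 library at a time, the number of peptidase genes called ranged from 28 to 34 (stage, aak-intact), 17 to 27 (stage, aak(0)), 14 to 21 (genotype in dauers), 0 to 6 (genotype in post-dauers) and 2 to 20 (interaction). In the same order of the first 4 comparisons, calls among inhibitors ranged from 0 to 4, 2 to 4, 0 to 2 and 0 to 4. Among lysosomal genes they ranged from 12 to 22, 12 to 17 and 5 to 15 in the first 3, among other peptidases from 18 to 20, 12 to 18 and 2 to 9, and among regulators from 5 to 9, 4 to 7 and 0 to 3.

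In post-dauers the 4 peptidase calls became 2 with a pseudocount of 0.1, 1 in the fit of only the groups compared and 10 with edgeR without a filter. For inhibitors, the 4 stage calls in aak-intact animals became 1 without a filter and 2 in the fit of only the groups compared. Their 2 calls in dauers became 1 with centred values, TMM-scaled FPKM, all 4 edgeR settings and DESeq2, and 0 in the fit of only the groups compared, which also gave 0 in post-dauers. In dauers the 7 calls of other peptidases became 4 with centred values, the 10 of lysosomal genes 5 with edgeR under either scaling, and the 3 of regulators 5 with edgeR without a filter. The cause was not tested.

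The replicate numbers were not shown to pair the libraries (correlations of deviations from -0.258 to 0.015). With the replicate block limma called 33, 25, 17, 3 and 12 peptidase genes in the 5 comparisons and edgeR 31, 29, 16, 4 and 13. Under the block inhibitor calls were 1 in dauers and 0 in post-dauers by limma, and 1 and 1 by edgeR. With the block edgeR called 5 lysosomal genes, 3 other peptidases and 1 regulator in dauers. A filter at a mean of 5 FPKM gave no value for low genes such as pcp-4. With 2 libraries a group, small changes and genes of low FPKM are the least certain.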
